A study of Mus musculus with 16 samples.

Results

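The early B-lymphoid genes described here are 10 genes, Vpreb1, Cd79a, Cd79b, Blnk, Mzb1, Rag1, Dntt, Ebf1, Pax5 and Satb1, out of the 16593 genes that the arrays name. They were chosen by symbol with earlier results of these data known, so counts of them beside the share of all genes are no independent test. Where a gene had several probes the brightest one was used. Their levels were measured in hematopoietic stem cells (HSC), the rare bone marrow cells from which all blood lineages derive. The cells came from C57Bl/6 mice and lay in the lineage-negative, c-Kit+, Sca-1+ population. The 16 bead arrays fall into 4 groups of 4, and each array carried the RNA of an independent pool of 2 mice. Control mice were IFNgamma-/-, and CD70TG mice were IFNgamma-/- with a CD70 transgene, so no group had this cytokine. CD70 binds CD27, a receptor that lymphocytes and blood progenitors carry. Each genotype was sorted into a fraction labelled CD34- (long-term HSC) and a fraction labelled CD34+ (short-term HSC). The submitted sort protocol gives 1 and the same CD34-Flt3- gate for both, so CD34- and CD34+ are label names here. The sources used here name neither the promoter that drives the transgene, nor the age of the mice, nor the antibodies of the lineage depletion.

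B lymphocytes arise from HSC through progenitors in which the transcription factor EBF1, and after it PAX5, switch on the B-cell programme. The recombinase RAG1 and the polymerase encoded by Dntt assemble and diversify the heavy chain gene of the antibody. The chain is then carried to the cell surface with the surrogate light chain, of which VpreB1 is a part, and with the signalling pair CD79a and CD79b. Some of these genes, Dntt and Satb1 among them, are transcribed before a cell is committed to the B lineage, and the transcription of lymphoid genes in multipotent cells is called lymphoid priming.

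Promoter sequences of 8 of the 10 genes were found in RefSeq (build GRCm38.p6), in 13 windows of 250 bases that end just before a transcription start. The windows of Cd79a and Vpreb1 are shown because both genes were lower in CD70TG CD34- arrays and because both hold the same pair of short motifs. The Cd79a window is chr7:24897247-24897496 on the plus strand and the Vpreb1 window chr16:16869256-16869505 on the minus strand. Both are written 5′ to 3′ on the strand of the gene, with the matches in capitals.
Cd79a: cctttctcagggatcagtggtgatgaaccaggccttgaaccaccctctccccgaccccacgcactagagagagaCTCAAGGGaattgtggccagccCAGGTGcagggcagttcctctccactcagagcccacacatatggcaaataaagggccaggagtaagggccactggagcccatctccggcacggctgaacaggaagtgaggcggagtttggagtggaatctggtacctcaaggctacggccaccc
Vpreb1: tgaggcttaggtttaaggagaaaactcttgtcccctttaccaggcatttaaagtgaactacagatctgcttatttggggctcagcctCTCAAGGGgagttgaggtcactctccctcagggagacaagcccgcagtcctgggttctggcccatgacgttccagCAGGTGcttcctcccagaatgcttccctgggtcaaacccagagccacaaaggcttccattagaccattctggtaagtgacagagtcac
The first motif searched was CTCNNGGG, on the other strand CCCNNGAG, a form of the sequence that EBF1 binds, and its letters were chosen with the Cd79a sequence in view. Both windows match it as CTCAAGGG, 176 bases before the start of Cd79a and 163 bases before that of Vpreb1. The second motif was the E box CAGGTG, on the other strand CACCTG, a form read by E proteins, and the 2 motifs share no base in these windows. It begins 154 bases before the start of Cd79a and 88 bases before that of Vpreb1. The first motif was present in 20.7% of all 32851 promoter windows and in 5 of the 13 windows of these genes, and the E box in 17.2% of all windows and also in 5 of 13. Several of the windows with the first motif belong to Satb1 alone, and the Cd79a match was known when the letters were chosen. The share of 5 of 13 is therefore no measure of enrichment over all windows. These matches describe letters in a window and not sites of binding.

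The values are the submitters' log2-like values, in which a difference of 1 is a doubling if the base of the logarithm is 2, which the sources used here do not give. All levels and differences below are in these units. A probe was called above background on an array when it exceeded the mode of that array by 1.64 SD of the background, and a gene was tested when this held on at least 4 of 16 arrays. Of the 10 genes, 9 passed. Vpreb1, Cd79a, Cd79b, Mzb1, Rag1, Dntt, Ebf1 and Satb1 were above background on all 16 arrays. Blnk was above it on 8 arrays, with 3, 3, 1 and 1 in the control CD34-, CD70TG CD34-, control CD34+ and CD70TG CD34+ groups. Pax5 was above it on 0 arrays. Differences were tested with limma over 11837 features, and a gene is called when its Benjamini-Hochberg adjusted p is under 0.05.

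The arrays had 50.2% to 57.3% of probes above background and correlations of 0.986 to 0.996 between replicates. The weights that limma estimated for the arrays were less even. They ran from 0.453 for CD70TG CD34- array 2 to 3.7 for CD70TG CD34- array 3. Control CD34+ arrays 2 and 4 stood at the ends of their group for these genes. Array 2 had the highest value of its group for 9 of 9 tested genes of this set, against 21.6% of all tested genes. Array 4 had the lowest for 8 of 9, against 26.9% of all. An axis of variation that runs through all arrays was also measured. Among 1837 other genes with 2 probes above background, the gap between both probes varied along 1 main axis that held 51.9% of the variance, and the position of an array on it, scaled to an SD of 1, is called the probe discordance index. The index averaged -1.18 ± 0.341 (SD, n = 4) in control CD34- arrays, 0.702 ± 0.641 in CD70TG CD34- arrays, -0.419 ± 0.698 in control CD34+ arrays and, in the CD70TG CD34+ group, 0.899 ± 0.392. The CD34- genotypes did not overlap on it, while control CD34+ array 4, at 0.576, lay among the CD70TG CD34+ arrays. What the axis stands for was not tested.

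The first comparison asks whether the CD70 transgene changed the level of these genes in the fraction labelled CD34-. The surrogate light chain gene Vpreb1, the receptor signalling genes Cd79a and Cd79b, Mzb1 and the transcription factor gene Ebf1 were lower in CD70TG arrays, by 0.49 to 1.23. Rag1, Dntt, Satb1 and Blnk were not called. Of the 9 tested genes, 5 were called lower and 0 higher, where 11.8% of all tested genes were called lower and 16% higher. The median difference was -0.49 over the 9 genes and 0.02 over all genes.

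**Figure D1:**
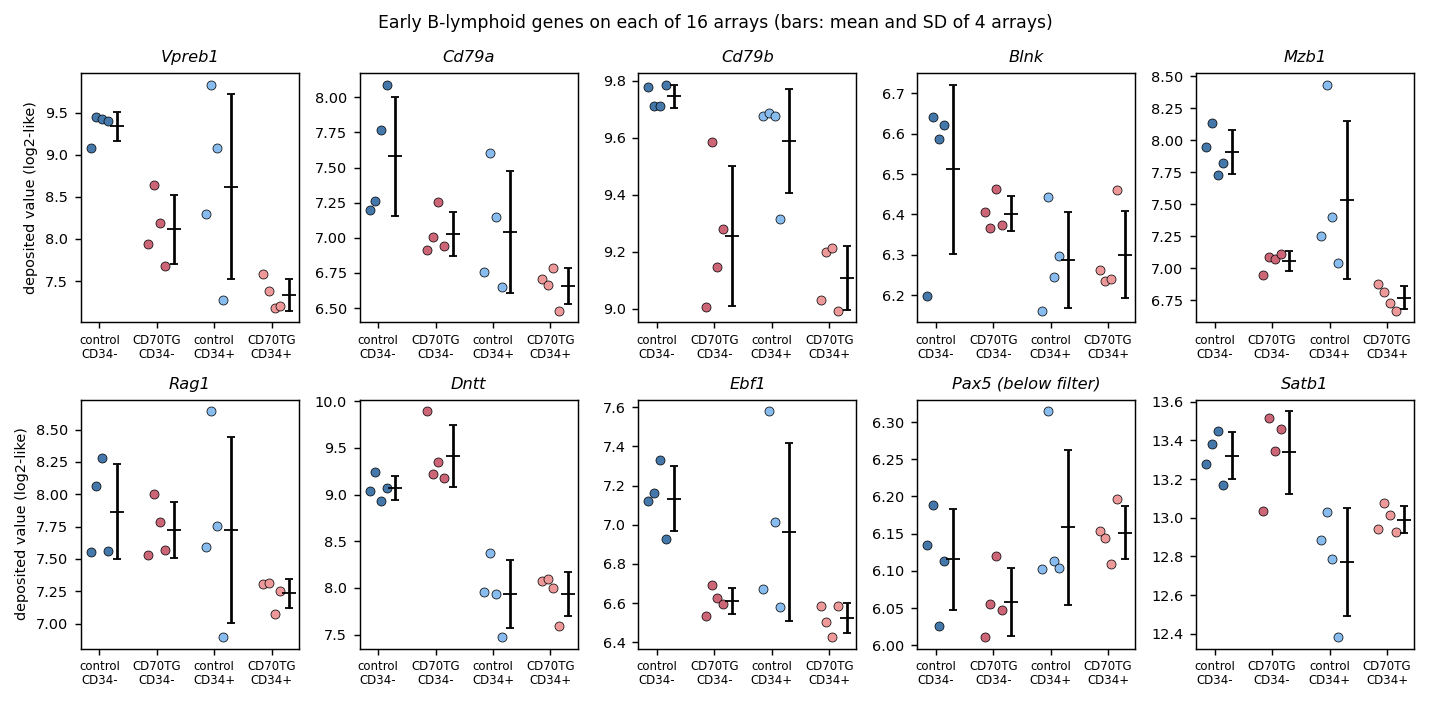
Deposited log2-like value of each early B-lymphoid gene (vertical axes, with their own scale for each gene and not starting at 0) on each of the 16 arrays, by group, with bars for the mean and SD of 4 arrays. Vpreb1, Cd79b, Mzb1 and Ebf1 lie lower in the CD70TG than in the control CD34- arrays with no overlap, Dntt lies lower in both CD34+ groups than in both CD34- groups, and Pax5 stays between 6.01 and 6.32.

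Vpreb1 read 9.08, 9.45, 9.42 and 9.40 on the 4 control CD34- arrays, a mean of 9.34 ± 0.17 (SD). On the CD70TG CD34- arrays it read 7.94, 8.65, 8.19 and 7.68, a mean of 8.11 ± 0.41. All 4 CD70TG arrays lay below all 4 control arrays. The difference of -1.23 ± 0.35 (SE) has a 95% interval from -1.97 to -0.49 and a limma adjusted p of 0.014. It corresponds to a 2.34-fold lower level if the base is 2.

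Cd79a and Cd79b encode the pair of chains that carry the signal of the B-cell receptor and of its precursor. Cd79a read 7.20, 7.27, 7.77 and 8.09 in control CD34- arrays and 6.91, 7.0, 7.25 and 6.94 in CD70TG CD34- arrays. The groups overlapped, since CD70TG array 3 lay above control array 1. The difference was -0.55 ± 0.19 with a limma adjusted p of 0.0391, the closest to the threshold of the 5 calls. It was not called without CD70TG CD34- array 1 (adjusted p = 0.0975), 2 (0.0603) or 4 (0.0818), or without control CD34- array 3 (0.0937) or 4 (0.146).

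Cd79b varied little among control CD34- arrays, at 9.78, 9.71, 9.71 and 9.79, and read 9.01, 9.59, 9.15 and 9.28 in CD70TG CD34- arrays. The groups did not overlap, although CD70TG array 2 came close to the controls. The difference was -0.49 ± 0.12 (limma adjusted p = 0.00605). A second, dimmer Cd79b probe fell by 0.5 in the same comparison (limma adjusted p = 0.000563), from a mean of 7.14 to 6.64.

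Mzb1 encodes a chaperone of the endoplasmic reticulum that helps to assemble antibody in B cells and plasma cells. It read 7.95, 8.13, 7.73 and 7.83 in control CD34- arrays. The CD70TG CD34- arrays read 6.95, 7.09, 7.08 and 7.12, so that the groups were set apart by more than the range of either. The genotypes differed by -0.85 ± 0.20, with an interval from -1.27 to -0.44 and a limma adjusted p of 0.0035, the lowest among these genes.

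Ebf1 read 7.12, 7.16, 7.33 and 6.93 in control CD34- arrays and 6.54, 6.69, 6.63 and 6.59 in CD70TG CD34- arrays. The groups did not overlap, and the CD70TG arrays stood close together. The difference was -0.52 ± 0.15 (limma adjusted p = 0.0145). Groups without overlap in the lower direction were thus seen for Vpreb1, Cd79b, Mzb1 and Ebf1, 4 of the 9 tested genes, where 9.68% of all tested genes showed them.

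The other tested genes had group means closer together. Dntt differed by 0.34, with a 95% interval from -0.04 to 0.72 and a limma adjusted p of 0.175. Rag1 differed by -0.14, with an interval from -0.67 to 0.39 (adjusted p = 0.714), and Satb1, a chromatin organiser of lymphoid cells, by 0.02, with an interval from -0.24 to 0.28 (adjusted p = 0.927). A change of the size seen for Cd79b lies within the interval of Rag1, and a rise of that size within that of Dntt, while the interval of Satb1 holds neither. Blnk, the adaptor that links the receptor to calcium signalling, differed by -0.11 (adjusted p = 0.379) at levels near background. Without control CD34- array 1 its difference of -0.21 was called (adjusted p = 0.0348).

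**Figure D2:**
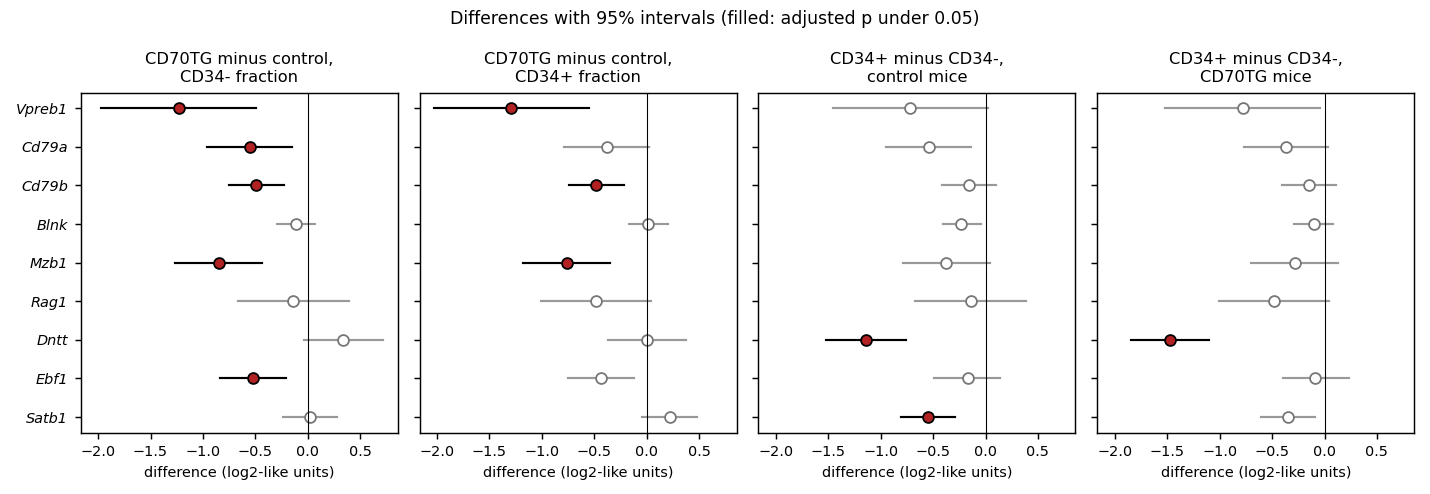
Difference between groups for the 9 tested genes (horizontal axes, log2-like units) with 95% intervals from limma, in 4 comparisons. Filled points have an adjusted p under 0.05, namely Vpreb1, Cd79a, Cd79b, Mzb1 and Ebf1 for the transgene in CD34-, Vpreb1, Cd79b and Mzb1 in CD34+, Dntt and Satb1 between fractions of control mice and Dntt between fractions of CD70TG mice.

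The same question was put to the fraction labelled CD34+. Vpreb1, Cd79b and Mzb1 were again lower in CD70TG arrays, by 0.48 to 1.29, and 0 genes were called higher. Of the 9 tested genes 3 were called lower, where 10.6% of all tested genes were called lower and 7.59% higher. The median was -0.44 over the 9 genes and 0.02 over all genes. Groups did not overlap for Cd79b and Mzb1, 2 of 9, against 12.8% of all tested genes.

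Vpreb1 had a wide spread in control CD34+ arrays, at 8.30, 9.84, 9.08 and 7.27, and read 7.59, 7.38, 7.17 and 7.20 in CD70TG CD34+ arrays. Control array 4 lay within the range of the CD70TG arrays and the other control arrays above it. Vpreb1 differed by -1.29 ± 0.35, with an interval from -2.03 to -0.55 (limma adjusted p = 0.0157). It was -0.88 without control CD34+ array 2 (adjusted p = 0.0576) and -1.13 without array 3 (0.0572), neither of which is called. It was -1.36 without both arrays 2 and 4, an alternative chosen after seeing the data (adjusted p = 0.000937).

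Cd79b read 9.68, 9.69, 9.68 and 9.32 in control CD34+ arrays and 9.03, 9.20, 9.21 and 8.99 in CD70TG CD34+ arrays. Control array 4 stood below the other control arrays and still above every CD70TG array. The difference was -0.48 ± 0.12 (limma adjusted p = 0.0107), and -0.57 without control arrays 2 and 4 (adjusted p = 0.0143). The second Cd79b probe differed by -0.27 (limma adjusted p = 0.0491).

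Mzb1 read 7.26, 8.44, 7.40 and 7.05 in control CD34+ arrays and 6.88, 6.82, 6.73 and 6.67 in CD70TG CD34+ arrays. The groups did not overlap, and control array 2 stood more than 1 unit above the other control arrays. The difference was -0.76 ± 0.20 (limma adjusted p = 0.0114), -0.46 without array 2 (adjusted p = 0.00813) and -0.56 without arrays 2 and 4 (0.00415).

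Ebf1 read 6.67, 7.58, 7.02 and 6.58 in control CD34+ arrays and 6.59, 6.5, 6.43 and 6.58 in CD70TG CD34+ arrays. The lowest control array lay within the CD70TG range. The difference of -0.44 ± 0.15 had a limma adjusted p of 0.0516 and was not called, while without control CD34+ array 4 it was -0.56 and called (adjusted p = 0.00903), as it was without array 1 (0.0303). Rag1 differed by -0.48, with an interval from -1.01 to 0.04 (adjusted p = 0.195), and by -0.76 without control array 4, which is called (adjusted p = 0.0163). Cd79a differed by -0.38 with an interval from -0.79 to 0.02 (adjusted p = 0.182), and Dntt by 0.00 with an interval from -0.37 to 0.38 (adjusted p = 0.99).

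The called genotype differences moved together with the probe discordance index. With the index as a covariate, 0 of the 5 CD34- calls and 0 of the 3 CD34+ calls held. In CD34- arrays Vpreb1 then differed by 0.18 (limma adjusted p = 0.902), Cd79b by 0.02 (0.973), Mzb1 by -0.28 (0.703), Ebf1 by -0.18 (0.781) and Cd79a by -0.29 (0.72). In CD34+ arrays Vpreb1 differed by -0.30 (adjusted p = 0.728), Cd79b by -0.12 (0.697) and Mzb1 by -0.36 (0.445), while Satb1 became called at 0.53 (0.0215). Over all genes the calls fell from 3293 to 667 in CD34- and from 2153 to 945 in CD34+. The index is confounded with genotype in the CD34- arrays, so a shift along this axis and an effect of the transgene cannot be told apart there. In CD34+ arrays only control array 4, at 0.576, lay within the CD70TG range of 0.356 to 1.196. The overlap of the genotypes on the index in CD34+ thus rests on that array. The fit with the covariate took a common slope on the index from the arrays of all groups.

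**Figure D3:**
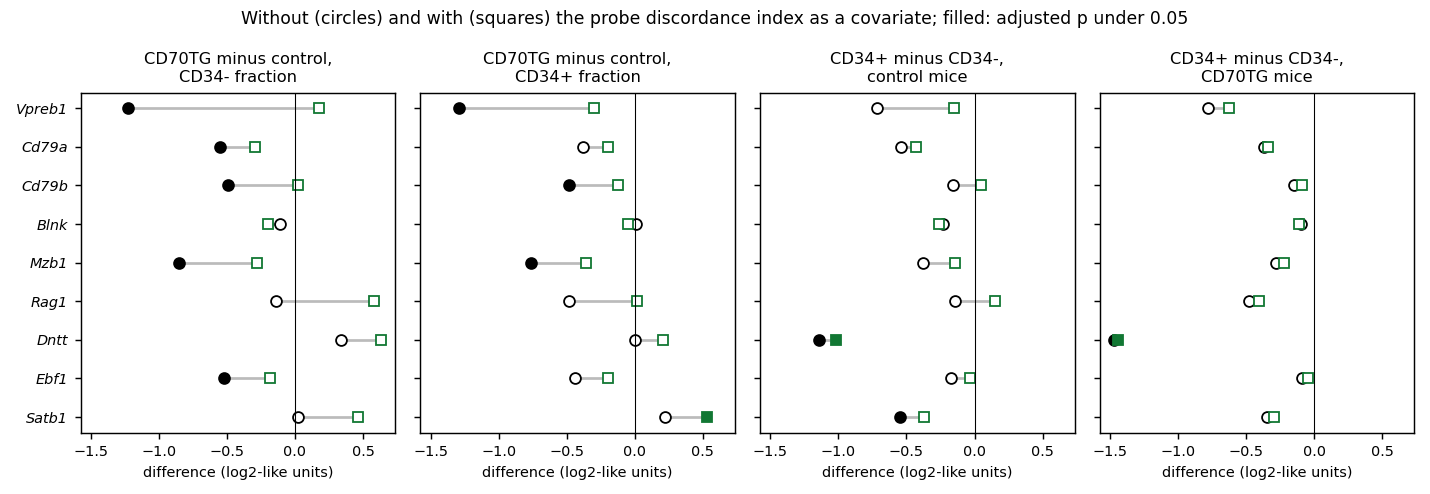
Difference between groups for the 9 tested genes (horizontal axes, log2-like units) without the probe discordance index (circles) and with it as a covariate (squares), joined by a line, and filled where the adjusted p is under 0.05. The genotype differences of Vpreb1, Cd79b, Mzb1 and Ebf1 move towards 0 or past it, from -1.23 to 0.18 for Vpreb1 in CD34-, and the fraction differences of Dntt stay at -1.02 in control and -1.44 in CD70TG mice.

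The next comparison asks how these genes differ between the fractions labelled CD34- and CD34+. Dntt was lower in the CD34+ fraction of both genotypes, and Satb1 was lower in that of control mice. In control mice 2 of 9 tested genes were called lower and 0 higher, where 4.34% of all tested genes were called lower and 3.99% higher. In CD70TG mice 1 of 9 was called lower and 0 higher, where 4.4% of all were called lower and 1.6% higher. All 9 differences were below 0 in each genotype, and most did not pass the test.

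Dntt read 9.04, 9.24, 8.93 and 9.07 in control CD34- arrays and 7.96, 8.37, 7.94 and 7.47 in control CD34+ arrays. In CD70TG mice it read 9.90, 9.22, 9.35 and 9.18 in CD34- arrays and 8.07, 8.09, 8.0 and 7.59 in CD34+ arrays. The 8 CD34+ arrays all lay below the 8 CD34- arrays. The difference was -1.14 ± 0.18 in control mice (limma adjusted p = 0.000467) and -1.47 ± 0.18 in CD70TG mice (1.89e-05), a 2.2-fold and a 2.78-fold lower level if the base is 2. It was called under every alternative run, with a range from -1.28 to -0.98 in control mice and from -1.55 to -1.31 in CD70TG mice when 1 array was left out. With the index as a covariate it was -1.02 (adjusted p = 0.00258) and -1.44 (5.03e-06).

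Satb1 read 13.28, 13.38, 13.45 and 13.17 in control CD34- arrays and 12.88, 13.03, 12.79 and 12.38 in control CD34+ arrays. These groups did not overlap. The difference was -0.55 ± 0.13 (limma adjusted p = 0.01), -0.49 without control CD34+ arrays 2 and 4 (adjusted p = 0.0405), and -0.37 with the index as a covariate, which is not called (0.0598). In CD70TG mice Satb1 read 13.04, 13.52, 13.34 and 13.46 in CD34- arrays and 12.94, 13.08, 13.02 and 12.93 in CD34+ arrays, which overlap at CD34- array 1. Satb1 differed there by -0.35 ± 0.13, with an interval from -0.61 to -0.09 (adjusted p = 0.133), and -0.45 without that array, which is called (0.0369).

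The other tested genes were not called between the fractions of control mice in the fit over all arrays. There Vpreb1 differed by -0.72 (limma adjusted p = 0.232), Cd79a by -0.54 (0.0939), Mzb1 by -0.38 (0.27), Ebf1 by -0.17 (0.539), Cd79b by -0.16 (0.48) and Rag1 by -0.14 (0.782). Blnk, near background, differed by -0.23 (0.125) and was called in 1 of 8 fits that left out 1 array (0.00763). The outcome for Vpreb1, Cd79a, Mzb1 and Ebf1 depended on control CD34+ array 2. Without it Vpreb1 (-1.12, adjusted p = 0.0275), Cd79a (-0.73, 0.0171), Mzb1 (-0.68, 0.00074) and Ebf1 (-0.38, 0.0331) were called besides Dntt and Satb1. Array 2 had the highest value of its group for every tested gene of this set, so leaving it out lowers the CD34+ mean of each. The range of calls over all genes with 1 array left out is given at the end. Without both arrays 2 and 4, Mzb1 was called besides Dntt and Satb1 (-0.58, adjusted p = 0.00796). Of all tested features 425 were called in that fit, against 986 in the fit over all arrays.

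In CD70TG mice the groups did not overlap, with the CD34+ arrays lower, for Vpreb1, Cd79a, Mzb1, Rag1 and Dntt, 5 of 9 against 8.79% of all tested genes, and in control mice for Cd79b, Dntt and Satb1, 3 of 9 against 6.6%. Of the 5 in CD70TG mice only Dntt was called in the fit over 4 groups, which takes 1 estimate of the spread from all 16 arrays. In a fit of the 8 CD70TG arrays alone the same 5 genes were called, as were 809 of all 11837 tested features. The limma adjusted p in that fit was 0.0154 for Vpreb1, 0.0279 for Cd79a, 0.0407 for Mzb1 and 0.02 for Rag1. The largest of these differences besides Dntt was that of Vpreb1, at -0.78.

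Whether the effect of the transgene differed between the fractions was tested as an interaction. Of the 9 genes 0 were called with limma and 0 had an unadjusted p under 0.05, where 0.355% of all tested genes were called and 7.33% had such a p. The lowest unadjusted p was 0.204, for Dntt, with an estimate of -0.34 and a 95% interval from -0.87 to 0.2. The interval of Cd79b ran from -0.36 to 0.38, that of Mzb1 from -0.5 to 0.68, that of Ebf1 from -0.36 to 0.53 and that of Vpreb1 from -1.11 to 0.99. Each group of arrays enters a genotype and a fraction comparison, so these comparisons are not independent of each other.

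Across the 4 groups, Vpreb1, Cd79a, Cd79b, Mzb1, Ebf1 and Rag1 had 1 order of means, from control CD34- through control CD34+ and CD70TG CD34- to CD70TG CD34+. The middle means of this order were nearly tied for Cd79a (7.04 and 7.03) and for Rag1 (both 7.72). Neighbours in this order mostly overlapped. Those that did not were control CD34- and control CD34+ for Cd79b, and CD70TG CD34- and CD70TG CD34+ for Vpreb1, Cd79a, Mzb1 and Rag1. Dntt and Satb1 had another order, with CD70TG CD34- highest, then control CD34-, CD70TG CD34+ and control CD34+, and only the step from control CD34- to CD70TG CD34+ was free of overlap. Some of these means were nearly tied as well, at 7.94 and 7.93 for Dntt in CD34+ and 13.34 and 13.32 for Satb1 in CD34-.

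Pax5, the factor that holds B cells to their lineage, read between 6.01 and 6.32 on all arrays, below background on each. Its group means were 6.12 ± 0.07, 6.06 ± 0.05, 6.16 ± 0.10 and 6.15 ± 0.04 in control CD34-, CD70TG CD34-, control CD34+ and CD70TG CD34+ arrays. In a fit without the filter its differences lay between -0.06 and 0.09, with limma adjusted p of 0.52 and above. A level below background has no order, so Pax5 is not compared further. Blnk read between 6.16 and 6.64, and its group means lay between 6.29 and 6.51.

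The spread within groups was itself uneven among the genes. Vpreb1 had a within-group SD of 0.6, larger than that of 99.3% of tested genes, and Rag1 one of 0.42, larger than 97.9%. Mzb1 (0.33) and Cd79a (0.32) were also above 95.3% and 95% of genes, whose median was 0.16. Cd79b, at 0.16, and Blnk, at 0.13, were not. Much of this spread lay in control CD34+ arrays, where Vpreb1 ranged over 2.56 units, Rag1 over 1.75 and Mzb1 over 1.39, against 0.42, 0.24 and 0.21 in CD70TG CD34+ arrays.

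**Figure D4:**
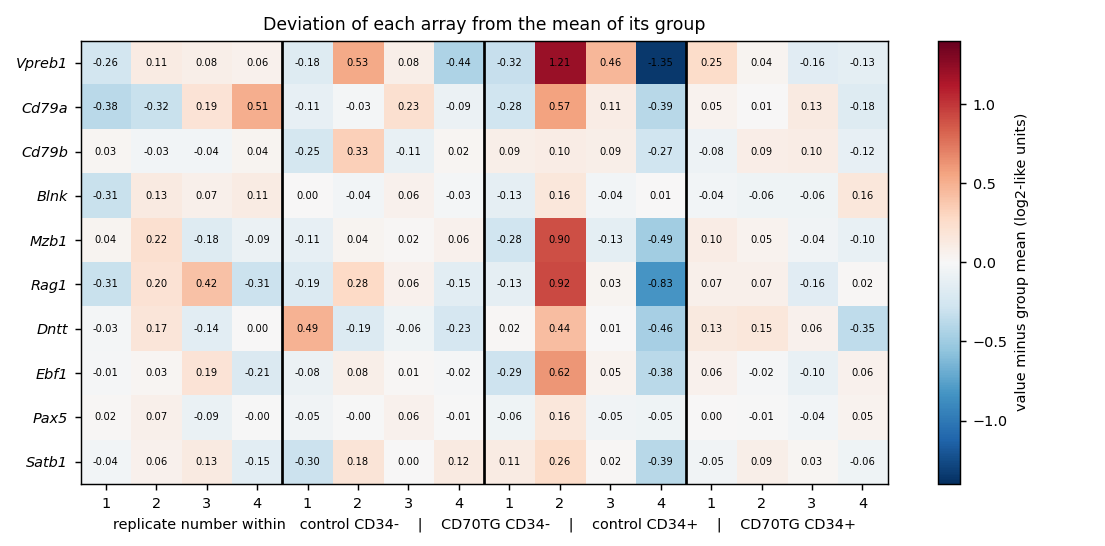
Deviation of each array from the mean of its group (colour and printed value, log2-like units) for the 10 genes in rows and the 16 arrays in columns. Control CD34+ array 2 is above its group mean for every gene, by 1.21 for Vpreb1 and 0.92 for Rag1, and array 4 is below it for every gene except Blnk, by 1.35 for Vpreb1.

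The expression patterns most like those of the 2 genes with the widest range were found by the root mean square distance over the 16 arrays, each gene centred on its own mean. The gene closest to Vpreb1 was Vpreb3, another gene of pre-B cells, at a distance of 0.19, followed by Uaca at 0.36 and Fah at 0.45, where the median gene lay at 0.91. Closest to Dntt were Depp1 at 0.28, Btla, an inhibitory receptor of lymphocytes, at 0.29 and Ckb at 0.33, where the median was 0.73. Vpreb3 followed Vpreb1 to its high value on control CD34+ array 2 and its low value on array 4.

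**Figure D5:**
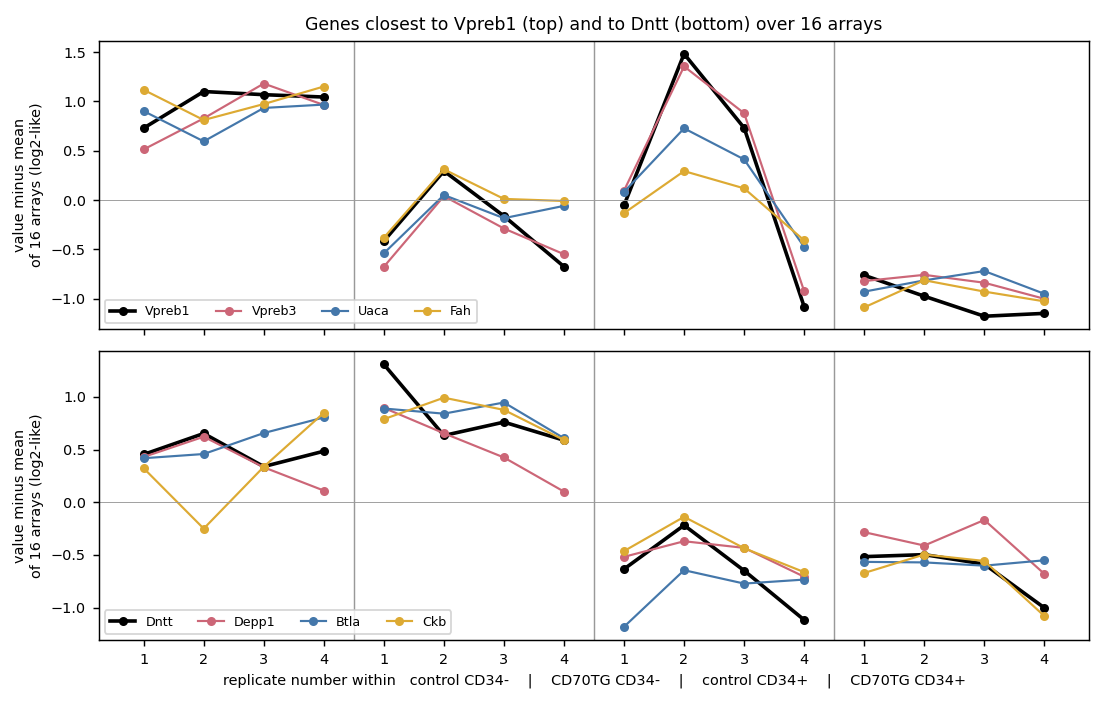
Value minus the mean of 16 arrays (vertical axes, log2-like units) for Vpreb1 and its 3 closest genes (top) and for Dntt and its 3 closest genes (bottom), on the 16 arrays in 4 groups. Vpreb3 lies within a root mean square distance of 0.19 of Vpreb1, and Depp1, Btla and Ckb lie lower in the CD34+ than in the CD34- arrays, as Dntt does.

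Other genes of the B lineage gave a mixed picture. Of 22 listed genes 13 were tested, and in CD34- arrays 5 were called lower and 1 higher in CD70TG mice, with a median of -0.14. Of all tested genes 11.8% were called lower there and 16% higher. Vpreb3 fell by 1.24 (limma adjusted p = 0.00699), Pou2af1, a coactivator in B cells, by 0.67 (0.00673) and Cd37, a tetraspanin of mature B cells, by 0.62 (0.00203). Fcer2a, a low-affinity IgE receptor, differed by -0.26 (adjusted p = 0.00374) near background. Cd24a, a surface protein of early B cells and of many other blood cells, rose by 1.73 (adjusted p = 0.00403). In CD34+ arrays 2 were lower, Vpreb3 (-1.21, adjusted p = 0.0127) and Pou2af1 (-0.56, 0.0273), with a list median of -0.12, and 0 were higher. Of all tested genes 10.6% were called lower in CD34+ and 7.59% higher.

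With the index as a covariate these calls too were lost for Vpreb3 (limma adjusted p = 0.989 in CD34- and 0.673 in CD34+), Pou2af1 (0.305 and 0.234), Cd37 (0.287) and Fcer2a (0.527). The value of Cd24a in CD34- arrays turned from 1.73 to -0.69 and remained called (0.0239). In CD34+ arrays Cd24a, at 0.91 and not called without the index (limma adjusted p = 0.134), was called lower with it (-0.79, 0.00116). Between the fractions of control mice 2 genes were lower in CD34+, where 4.34% of all tested genes were. Rag2, the partner of Rag1, read 6.54 ± 0.03 in CD34- arrays and was above background on 0 of 4 CD34+ arrays, so its level was at least 1.14-fold higher in CD34- if the base is 2 (limma adjusted p = 0.000936). Blk, a kinase of the receptor pathway, differed by -0.34 (0.0461), was above background on 2 of 4 control CD34+ arrays, and was not called with the index (-0.24, 0.203), while Rag2 was (-0.34, 0.0092). In CD70TG mice 0 of the 13 were called between fractions, with 4 at an unadjusted p under 0.05, and 0 in the interaction, with 1. Of all tested genes 4.4% were called lower and 1.6% higher between these fractions. For the interaction 0.355% of all were called and 7.33% had an unadjusted p under 0.05. The share of all genes with such a p between fractions is not given here.

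Genes of lymphoid priming, 20 tested of 26 listed, moved in both directions. In CD34- arrays 5 were called higher and 4 lower in CD70TG mice, with a median of 0.04. Of all tested genes 16% were called higher there and 11.8% lower. Il7, the cytokine that drives early B-cell growth, fell by 0.53 (limma adjusted p = 0.000549), and Myb, a factor of cycling progenitors, rose by 2.31 (0.00165). Flt3, a cytokine receptor of lymphoid-primed progenitors, differed by 1.94 (0.00164) but was above background on only 2 of 4 control arrays. Irf4, a factor of B-cell and plasma cell differentiation, was above background on 0 of 4 CD70TG arrays, and its level was at least 1.24-fold higher in control arrays if the base is 2 (0.000352).

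In CD34+ arrays 2 were higher and 4 lower, with a median of -0.01, where 7.59% of all tested genes were called higher and 10.6% lower. Irf8, a factor of B cells and of myeloid cells, rose by 1.97 (limma adjusted p = 8.14e-06), and Bcl11a (-0.57, 0.000854), Il7 (-0.49, 0.00169) and Foxo1 (-0.54, 0.00421) fell. Bcl11a and Foxo1 encode transcription factors needed in early B-cell development. With the index as a covariate Irf8 (adjusted p = 1.07e-05) and Il7 (0.00786 here and 0.0188 in CD34-) were still called, and Bcl11a (0.0543) and Foxo1 (0.137) were not. In CD34- arrays Irf4 was not called with it either (-0.36, 0.177), and Myb (-0.48, 0.379) and Flt3 (-0.25, 0.767) turned sign and were not called. In CD34+ arrays Myb, at 1.23 and not called without the index (0.0871), was called lower with it (-0.73, 0.046).

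Between fractions 3 of the priming genes were called lower in CD34+ in each genotype and 0 higher. Of all tested genes 4.34% were called lower in control and 4.4% in CD70TG mice, and 3.99% and 1.6% higher. Notch1, the receptor that steers progenitors towards T cells, fell by 0.70 in control mice (limma adjusted p = 0.00373) and by 0.91 in CD70TG mice (0.000263). Mef2c, a factor that favours lymphoid over myeloid fate, fell by 0.80 (0.0178) and by 0.70 (0.0434). The third gene was Gfi1, a repressor in stem and lymphoid cells, in control mice (-0.61, adjusted p = 0.0148) and Id2, an inhibitor of E proteins, in CD70TG mice (-0.64, 0.0111). With the index as a covariate Gfi1 was not called (-0.55, adjusted p = 0.0514), while Notch1 (0.0271 and 6.61e-05), Mef2c (0.0411 and 0.0295) and Id2 (0.00233) were. Between CD70TG fractions Flt3 (-0.84, limma adjusted p = 0.00497) and Ly6d (0.52, 0.0226) were called only with the index. In the interaction 0 of the 20 were called, with 3 at an unadjusted p under 0.05. Of all tested genes 0.355% were called there and 7.33% had such a p.

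Markers of other cells were read beside these results, because in bulk RNA fewer cells of a type and less RNA per cell cannot be told apart. Of all tested genes 11.8% and 10.6% were called lower by genotype in CD34- and CD34+, and 16% and 7.59% higher. By fraction 4.34% and 4.4% were called lower in control and CD70TG mice, and 3.99% and 1.6% higher. Of 8 mature B cell markers 2 were tested, Cd22 and Fcer2a, and their mean level lay between 6.36 and 6.64 on all arrays, with 1 lower in the CD34- genotype comparison and no other call. Ms4a1, which encodes CD20, was above background on 2 of 16 arrays and Cr2 on 0, and the other listed markers were not analysed here. Of 8 plasma cell markers 5 were tested, with mean levels of 8.24 to 8.37, 8.09 to 8.19, 7.94 to 8.13 and 7.78 to 7.87 in control CD34-, CD70TG CD34-, control CD34+ and CD70TG CD34+ arrays, and 2, 0, 1 and 2 were called lower in the 4 comparisons. Their part in the lower Mzb1 was not tested. Prdm1, Tnfrsf17 and Derl3 of that list were above background on 0 arrays.

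Myeloid markers moved with both factors. The mean level of 7 macrophage markers lay at 7.70 to 7.97 in control CD34- and 9.39 to 9.78 in CD70TG CD34- arrays, and at 6.91 to 7.02 and 7.12 to 7.38 in the CD34+ groups. All 7 were higher in CD70TG CD34- arrays, 2 of 7 in CD70TG CD34+ arrays, and 6 and 7 were lower in the CD34+ than in the CD34- fraction of control and CD70TG mice. The mean level of 7 neutrophil markers lay at 11.20 to 11.76 and 11.53 to 12.56 in control and CD70TG CD34- arrays and at 9.95 to 10.40 and 10.40 to 11.08 in the CD34+ groups, with 4 and 3 called higher by genotype and all 7 lower by fraction in both genotypes. The part of these cells in the fraction difference of Dntt and Satb1, and in the genotype differences, was not tested.

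Stem cell markers, 9 tested of 12, had mean levels of 7.99 to 8.09 in control and 7.51 to 7.55 in CD70TG CD34- arrays, and of 7.91 to 7.98 and 7.34 to 7.47 in the CD34+ groups, and 4 were lower in CD70TG arrays of each fraction. Cd34 itself differed between the fractions by -0.17 in control (limma adjusted p = 0.438) and by -0.09 in CD70TG mice (0.813). T cell markers, 6 tested of 10, had a mean level over the markers between 6.33 and 6.61 on all arrays. Among them 1 was called lower in each genotype comparison and 0 by fraction. By fraction 1 and 2 had an unadjusted p under 0.05, and the share of all genes with such a p is not given here. Of the NK cell (4 tested), plasmacytoid dendritic cell (5) and erythroid (5) lists, at most 1 gene was called in each direction of a comparison, and their group means lay between 9.17 and 9.25, 9.29 and 9.39, and 8.0 and 8.51.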

How the data were processed

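RNA of sorted HSC pools was amplified in 2 rounds, given a biotin label and read on mouse bead arrays of Illumina, per the labels' protocols. The authors deposited log2-like values for 25697 probes on 16 arrays, with medians of 6.427 to 6.531. Their log base, background correction and normalization are unstated in these sources. The planned design foresaw a normalization only for linear values, so none was applied. A second deposited table (32 columns) stayed out, since no label names its columns. Probes were named through the platform annotation updated by gene number (23978 with 1 symbol, 0 with several, 1719 with none, 23962 matched by number). Probes above background (mode plus 1.64 SD of the values below it, density bandwidth 0.1) on at least 4 of 16 arrays were kept (15537), and the brightest stood for a gene, which left 11837 features, 10895 of them named.

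Groups and replicate numbers follow the titles. Limma 3.58.1 (R 4.3.3) fitted 4 group means over all 16 arrays (lmFit, eBayes with trend, 12 residual degrees of freedom), with Benjamini-Hochberg adjustment over all features and a threshold of 0.05. The fit was tested on simulated data in the CD34- genotype, control fraction and interaction comparisons. It called 63%, 70% and 30% of changes of 0.5, and 94%, 95% and 83% of changes of 1. False calls made up 6.5%, 6.8% and 4.2% of the calls. The p-values rest on an estimate of the spread between pools of 2 mice that all 4 groups share, and the number of arrays limits the precision. For Vpreb1, with group SDs from 0.17 to 1.1, a fit of only the compared arrays gave other genotype values. Its limma adjusted p was 0.000957 in CD34- and 0.0322 in CD34+. Values near background are compressed, which understates their differences. No 2 arrays shared more than 0.288% of values. The 10 genes and the gene lists (22 other B lineage genes, 26 lymphoid priming genes and the cell type markers) were chosen with earlier results of these data known. From each of the first 2 lists at most 4 called genes with the smallest p in a comparison were named (Vpreb3 is given besides them in the CD34- genotype comparison, as the gene nearest to Vpreb1), and 3 nearest genes for the 2 members of largest SD. Genes of the first 2 lists that were called only with the index are also named. Alternatives were no filter and a stricter one, all probes singly, a fit of only the compared arrays, a replicate block, array weights, quantile normalization, the probe discordance index as a covariate and leaving out each array.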

Additional observations from a re-analysis of the deposited data

Results flagged for a closer look

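Within the 40 groups of 4 arrays given by 10 genes and 4 groups, 5 held an array farther from the others than Dixon's 95% critical value for 4 arrays allows, where chance gives about 1 in 20. The ratio is the gap of that array to its nearest neighbour over the range of the group. In control CD34+ arrays, Cd79b on array 4 (9.32, against 9.68 to 9.69 on the other arrays) had a ratio of 0.968. In the same group Pax5 on array 2 (6.32, against 6.10 to 6.11) had a ratio of 0.953, at a level below background. In control CD34- arrays, array 1 was low for Blnk (6.20, against 6.59 to 6.64, ratio 0.876) and for Vpreb1 (9.08, against 9.40 to 9.45, ratio 0.849). Blnk on CD70TG CD34+ array 4 was high (6.46, against 6.24 to 6.26, ratio 0.88). The 3 values of Blnk and Pax5 lie near or below background.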

How the results depend on the processing

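Dntt between fractions was called under every alternative run, and Mzb1 and Cd79b between genotypes in both fractions under every alternative except the probe discordance index. With the index, members called fell from 5 to 0 and all calls from 3293 to 667 in the CD34- genotype comparison, from 3 to 1 (Satb1) and from 2153 to 945 in CD34+, and members from 2 to 1 between control fractions. Array weights gave 3318 calls and 5 members in the CD34+ genotype comparison (Ebf1, adjusted p = 0.00809, and Rag1, 0.0326, gained), 1424 calls (710 before) and 2 members (Satb1 gained, 0.0263) between CD70TG fractions, and no call for Cd79a in CD34- (0.058). Using only the arrays compared gave 486 calls between control fractions (986 before). Between CD70TG fractions it gave 809 calls (710 before) and 5 members. Leaving out both control CD34+ arrays 2 and 4, chosen after seeing the data, gave 425 calls between control fractions. Quantile normalization gave 1619 higher and 2003 lower calls in the CD34- genotype comparison, against 1893 and 1400. When 1 array was left out, members called ranged from 4 to 6 and 2 to 5 between genotypes in CD34- and CD34+ (5 without control CD34+ array 4), from 2 to 6 between control fractions (6 without control CD34+ array 2) and from 1 to 2 between CD70TG fractions (2 without CD70TG CD34- array 1), and all calls between control fractions from 623 (without control CD34- array 4) to 1173.

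Differences that changed sign were, with 1 exception, uncalled before and after, and the cause was not tested. The exception is the index, which turned the called CD34- genotype differences of Cd79b (0.02) and Vpreb1 (0.18) and also Rag1 (0.58, and 0.02 in CD34+), and between control fractions Cd79b (0.05) and Rag1 (0.15). In the CD34+ genotype comparison Blnk turned with weights (-0.01), quantiles (-0.02) and the index (-0.05), and Dntt with weights (-0.06), quantiles (-0.0011) and both arrays out (-0.01). Satb1 turned in CD34- with quantiles (-0.08) and Rag1 between control fractions with weights (0.04). For the interaction Cd79b turned with the index (-0.14) and both arrays out (-0.08), Mzb1 with weights (-0.05) and the index (-0.08), Ebf1 with weights (-0.02) and the index (-0.02), and Vpreb1 with quantiles (0.04). Leaving out 1 array gave -0.04 to 0.12 for Satb1 in CD34-, -0.04 to 0.07 for Blnk and -0.15 to 0.15 for Dntt in CD34+, -0.45 to 0.13 for Rag1 between control fractions, and for the interaction -0.08 to 0.12 (Cd79b), -0.07 to 0.39 (Mzb1), -0.04 to 0.29 (Ebf1) and -0.51 to 0.34 (Vpreb1).

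The replicate numbers are shared by title only. Arrays with the same number correlated at -0.335 to 0.653 in their deviations from the group means (median 0.052 over 24 pairs), and 5 of 16 arrays correlated best with their own number. With the replicate number as a block, members called were 5, 4, 2, 1 and 0 in the 5 comparisons, with Ebf1 gained in CD34+ (adjusted p = 0.0342), and all calls 3396, 2400, 1075, 733 and 46.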
